A study of Mus musculus with 10 samples.

Results

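The 33 genes described here encode proteins of the lysosome, from the glycoprotein Cd68 and other proteins of its membrane to the hydrolases of its lumen. They were measured in BMEL cells, a bipotential mouse embryonic liver cell line, transfected by Oligofectamine with an LNA (locked nucleic acid, a chemically stiffened nucleotide) oligonucleotide. It was directed against miR-30a on 5 arrays, called antisense, and scrambled in sequence on 5 arrays, called scrambled. Both groups received an oligonucleotide and the reagent, no untreated cells were among the samples analysed here, and the labels give neither dose nor time. A gene was represented by the probe set whose platform annotation gives its symbol alone, and by the brightest over all 10 arrays where there were several. This found 32 of the 33 genes, of 18193 genes with such a probe set. No probe set was listed under Cd63, which is not analysed here. Cd68 was included because its change between these groups was already known, so its values are a description and carry no test. The other members were picked for their place in the lysosome.

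The lysosome is the acidic compartment in which cells degrade proteins, glycans, lipids and spent organelles. Its membrane is lined with heavily glycosylated proteins such as Lamp1 and Lamp2 and holds transporters and channels, while its lumen holds acid hydrolases that mostly reach it by mannose 6-phosphate tags. Many lysosomal genes share a promoter E-box bound by TFEB and related factors and can be induced together. Cd68 belongs to the Lamp family and is best known as a macrophage marker, although other cells also make it.

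The targeted microRNA is shown with its seed, bases 2 to 8 from the 5′ end, in capitals. The sequences are from RefSeq (GRCm38.p6), and miR-30a lies on chromosome 1 (chr1:23272274-23272295, plus strand, for the 5p arm). The 5p arms of miR-30c and miR-30e are given because they carry the seed GUAAACA too, while the 3p arm of miR-30a has another.
mmu-miR-30a-5p: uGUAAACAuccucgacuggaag
mmu-miR-30c-5p: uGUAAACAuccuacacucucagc
mmu-miR-30e-5p: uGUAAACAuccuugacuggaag
mmu-miR-30a-3p: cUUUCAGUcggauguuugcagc

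The values are log2 expression values, and 12633 genes with a mean above a filter level of 4.56 were tested with limma. Array medians lay between 5.21 and 5.24. The liver epithelial genes Krt8 (13.8 in both groups), Krt18 (13.7 in both groups), Hnf4a (10.7 in both groups) and Foxa2 (10.3 in both groups) were well above the filter level in both groups, while albumin was near it (4.70 in antisense and 4.73 in scrambled arrays). None of the 10 liver epithelial markers with a probe set passed the test. Sox9, a factor of biliary and progenitor cells, came nearest: it averaged 7.36 ± 0.061 in antisense and 7.19 ± 0.047 in scrambled arrays (SD, n = 5 each), with groups that did not overlap and a log2 change of 0.17 (limma adjusted p = 0.0662, or 0.0571 with the replicate block). What part this has in the results was not tested. As a measure of RNA quality, the log2 signal at the 3′ end minus that at the 5′ end over 5 control transcripts ranged from 0.515 to 0.554 in antisense arrays and from 0.469 to 0.645 in scrambled arrays. Over all genes tested the median log2 change, antisense minus scrambled, was 0.0084, and 193 genes (1.53%) passed an adjusted p of 0.05. With the replicate number as a block 385 genes (3.05%) passed.

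Of the 32 lysosomal genes Cd68 was higher with the antisense oligonucleotide and past the threshold, against 1.16% of all genes tested that were called higher, and nothing is read from that count because the contrast chose Cd68. None of the other 31 passed, also with the replicate block. Their log2 changes ran from -0.15 (Ctsa) to 0.16 (Psap), with a median of 0.024, and 17 lay above 0 and 14 below. Among all genes tested 55.1% lay above 0. The highest upper end of their 95% intervals was 0.27 (Psap). The interval of Cd68 ran from 0.238 to 0.55, so it overlapped those of Psap and Gusb (upper end 0.244) and of no other member. This is a description, since Cd68 was chosen for its change. An alternative that lets the spread follow the signal level called 2 more members, the cathepsin genes Ctsd and Ctsl (adjusted p = 0.021 and 0.0423 with limma's trend). The plot of changes by role gives every member with its interval.

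**Figure D1:**
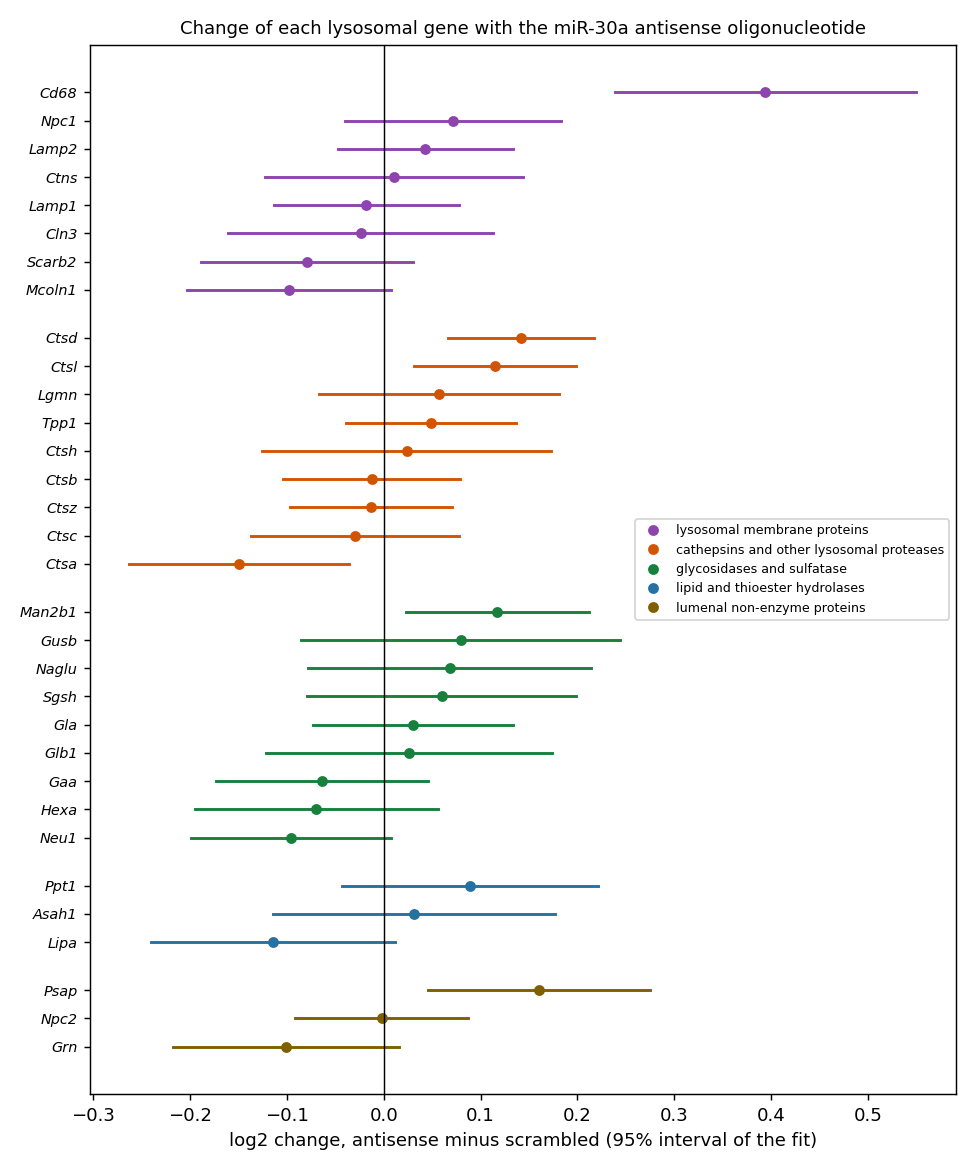
Log2 change of each of 32 lysosomal genes, antisense minus scrambled (points), with the 95% interval of the limma fit (lines), grouped by role. Cd68 lies at 0.39, and the other 31 lie between -0.15 and 0.16.

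Cd68 had log2 values of 5.84, 5.69, 5.90, 5.91 and 5.97 in antisense arrays 1 to 5, against 5.47, 5.37, 5.28, 5.58 and 5.64 in scrambled arrays 1 to 5. All 5 antisense arrays lay above all 5 scrambled ones, with antisense array 2 the lowest of its group and scrambled array 5 the highest of its own. The means were 5.86 ± 0.107 and 5.47 ± 0.148 (SD, n = 5 each) in antisense and scrambled arrays, a log2 change of 0.39 (SE 0.072) or 1.31-fold. A change of at least that size upward was seen in 40 of the genes tested (0.317%). Since Cd68 was chosen for its change, that share is a description and nothing is read from it. The gene has 1 probe set, and its level is dim: both means are near the array medians and under the level of 5.99 below which 60% of probe sets fall. Its place past the threshold was lost without antisense replicate 3 or without antisense replicate 4 (limma adjusted p = 0.0523 and 0.0551). In RNA from whole cultures, a change in the number of cells of a type and a change in RNA per cell cannot be told apart.

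The 250 bases before the Cd68 start site (RefSeq, GRCm38.p6, chr11:69666171-69666420, minus strand) are printed because Cd68 had the largest change of the members.
Cd68: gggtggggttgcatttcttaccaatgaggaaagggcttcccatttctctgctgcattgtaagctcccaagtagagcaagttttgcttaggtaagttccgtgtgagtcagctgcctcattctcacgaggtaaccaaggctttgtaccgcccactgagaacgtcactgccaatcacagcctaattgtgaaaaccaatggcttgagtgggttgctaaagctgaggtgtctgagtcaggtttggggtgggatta

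The other 7 measured membrane proteins had log2 changes from -0.098 to 0.072 with 95% intervals that spanned -0.20 to 0.18 in all. Lamp1 and Lamp2 encode the most abundant glycoproteins of this membrane. Lamp1 averaged 11.45 ± 0.068 in antisense and 11.47 ± 0.056 in scrambled arrays (SD, n = 5 each). Lamp2 averaged 10.20 ± 0.040 in antisense and 10.15 ± 0.068 in scrambled arrays. They are relatives of Cd68 within the Lamp family, and for each the groups overlapped. Npc1, which exports cholesterol from the lysosome, had a change of 0.072, and the cystine exporter gene Ctns one of 0.011. Scarb2, the receptor that carries glucocerebrosidase to the lysosome, had a change of -0.079 and Cln3, whose loss causes juvenile Batten disease, one of -0.024. A dimmer Cln3 probe set above the filter level stood at -0.24, with groups that overlapped, and the mean of both Cln3 probe sets at -0.13 (limma adjusted p = 0.0633). On the brightest probe sets the largest shift besides Cd68 was that of Mcoln1, a calcium-permeable channel of the lysosomal membrane. Mcoln1 had values of 7.71, 7.66, 7.71, 7.80 and 7.90 in antisense arrays, against 7.87, 7.90, 7.85, 7.77 and 7.89 in scrambled arrays. Antisense arrays 1 to 3 lay under every scrambled array, array 5 lay among the highest scrambled ones, and the change of -0.098 (SE 0.049) did not pass (limma adjusted p = 0.434).

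Among the lysosomal proteases Ctsd and Ctsl were the members nearest the threshold. Ctsd, the main aspartic protease of the lysosome, had values of 10.58, 10.51, 10.57, 10.55 and 10.58 in antisense arrays, against 10.46, 10.42, 10.39, 10.37 and 10.43 in scrambled arrays. The groups did not overlap, and the spread was narrow in both (SD 0.028 and 0.035 in antisense and scrambled arrays), but the change of 0.14 (SE 0.035) missed the threshold (limma adjusted p = 0.0646). It passed when only genes above the 60% level were tested (adjusted p = 0.041), a setting in which Cd68 is left out as too dim. Ctsl, a cysteine protease, had values of 12.51, 12.58, 12.48, 12.53 and 12.51 in antisense arrays, against 12.32, 12.43, 12.41, 12.41 and 12.47 in scrambled arrays. Its groups did not overlap either, antisense array 3 being just above scrambled array 5, and the change of 0.11 (SE 0.039) did not pass (limma adjusted p = 0.201). Besides Cd68, groups that did not overlap were thus seen in 2 of 31 members (6.45%), both higher, against 3.92% of all genes tested (2.74% higher and 1.18% lower).

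Ctsa, the protective protein that stabilises neuraminidase and beta-galactosidase in one complex, lay the other way. Its values were 9.31, 9.24, 9.37, 9.22 and 9.45 in antisense arrays, against 9.47, 9.45, 9.48, 9.37 and 9.56 in scrambled arrays. The antisense array was the lower one in all 5 pairs of equal replicate number, though the groups overlapped, and the change was -0.15 (SE 0.052). Its limma adjusted p was 0.227, or 0.0596 with the replicate block. The remaining proteases had changes near 0: the dipeptidyl peptidase gene Ctsc (-0.029), the aminopeptidase gene Ctsh (0.024), the endopeptidase gene Ctsb (-0.012), the carboxypeptidase gene Ctsz (-0.013), the asparaginyl endopeptidase gene Lgmn (0.057) and the tripeptidyl peptidase gene Tpp1 (0.049).

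**Figure D2:**
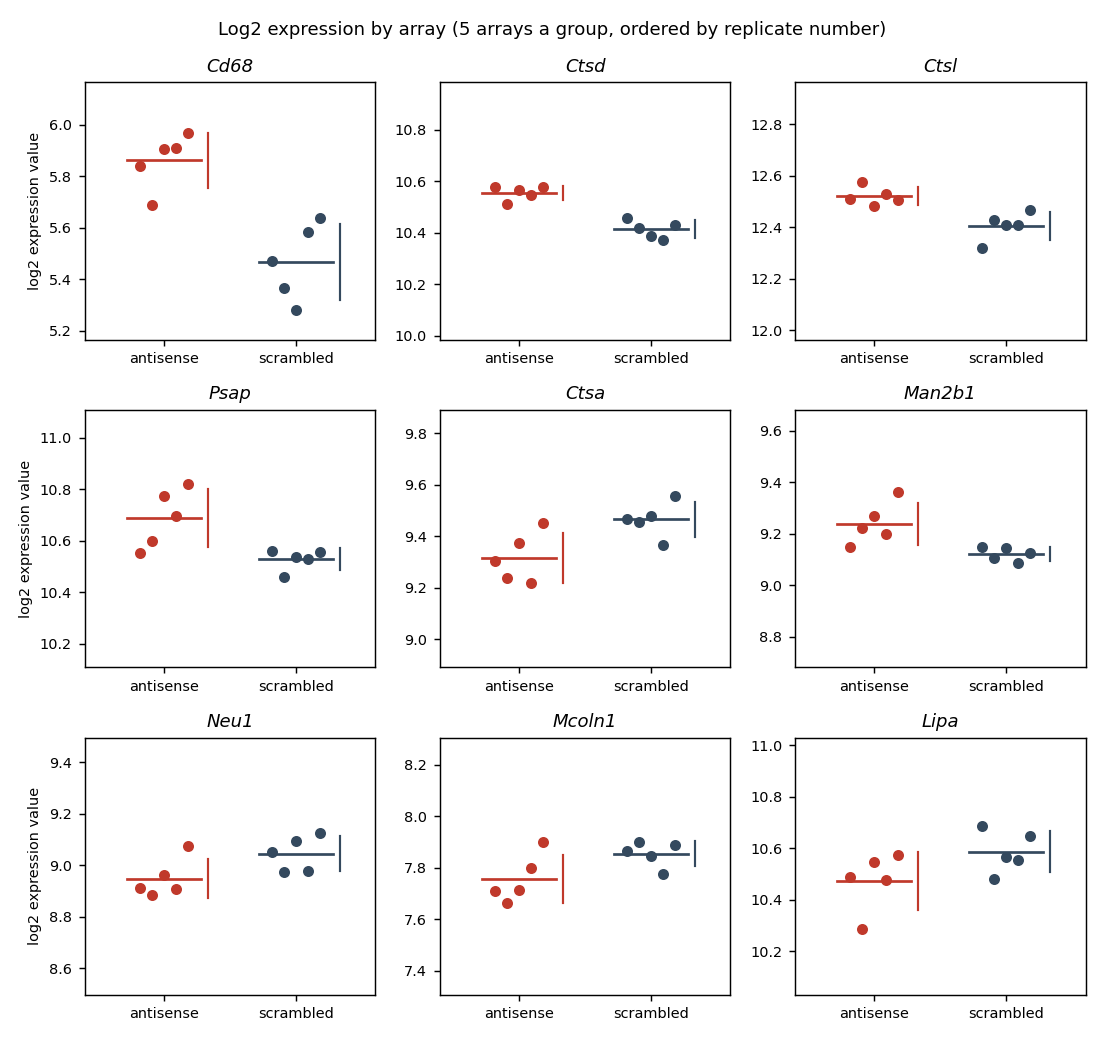
Log2 expression values by array for Cd68, the members whose groups did not overlap and the 6 other members of smallest p, antisense left and scrambled right, with the mean (horizontal line) and SD (vertical line); every panel spans 1 log2 unit. Cd68, Ctsd and Ctsl show no overlap between the groups.

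The 9 glycosidase and sulfatase genes had changes from -0.096 to 0.12, none past the threshold. Man2b1, the acid alpha-mannosidase, had values of 9.15, 9.22, 9.27, 9.20 and 9.36 in antisense arrays, against 9.15, 9.11, 9.15, 9.09 and 9.13 in scrambled arrays. Antisense arrays 2 to 5 lay above every scrambled array, and the change was 0.12 (SE 0.044, limma adjusted p = 0.259). Neu1, the sialidase held in the complex with Ctsa, had values of 8.91, 8.88, 8.96, 8.91 and 9.07 in antisense arrays, against 9.05, 8.97, 9.09, 8.98 and 9.13 in scrambled arrays. As with Ctsa, each antisense array lay under the scrambled array of its number while the groups overlapped, and the change was -0.096 (SE 0.048, limma adjusted p = 0.433). Glb1, the beta-galactosidase that joins them, was at 0.026. The other changes were 0.079 for the beta-glucuronidase gene Gusb, 0.068 for Naglu and 0.060 for Sgsh, both of heparan sulfate breakdown, 0.030 for the alpha-galactosidase gene Gla, -0.063 for the glycogen-degrading Gaa and -0.070 for Hexa, the alpha subunit of hexosaminidase A.

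Of the lipid and thioester hydrolases, Lipa, the acid lipase that frees cholesterol from its esters, had values of 10.49, 10.29, 10.55, 10.48 and 10.57 in antisense arrays, against 10.69, 10.48, 10.57, 10.56 and 10.65 in scrambled arrays. Each antisense array lay under the scrambled array of its number, the groups overlapped, and the change was -0.11 (SE 0.058, limma adjusted p = 0.445). In all 5 such pairs 3 members were lower (Ctsa, Neu1 and Lipa) and, Cd68 left out, 2 were higher (Ctsd and Ctsl). The share of all genes with such pairs was not counted, so nothing is read from these counts. The palmitoyl thioesterase gene Ppt1 was at 0.089 and the acid ceramidase gene Asah1 at 0.031.

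The lumenal proteins that are no enzymes differed among themselves. Psap, the precursor of the saposins that present sphingolipids to their hydrolases, had values of 10.55, 10.60, 10.78, 10.69 and 10.82 in antisense arrays, against 10.56, 10.46, 10.54, 10.53 and 10.56 in scrambled arrays. Antisense arrays 2 to 5 lay above every scrambled array and antisense array 1 lay among them. The change of 0.16 (SE 0.053) was the largest after that of Cd68 and did not pass (limma adjusted p = 0.193). Progranulin (Grn) was at -0.10 and the sterol carrier Npc2 at -0.0022. As a description, the median log2 change was -0.0037 for the 8 membrane proteins, Cd68 included, and 0.028 for the 24 lumenal ones, against 0.0084 over all genes tested. At an unadjusted limma p of 0.05, 4 of the 31 members besides Cd68 were higher (Ctsd, Ctsl, Psap and Man2b1) and 1 lower (Ctsa), 16.1% in all, against 12.9% of all genes tested (8.41% higher and 4.5% lower).

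Further probe sets bore on how far single values can be read. The 32 genes had 71 probe sets, of which 31 besides the brightest were above the filter level. Of those, 25 had the sign of the brightest and 6 the opposite one. The second Psap probe set stood at 0.20 and the second Man2b1 probe set at 0.12, close to the brightest. All 3 Lipa probe sets lay between -0.12 and -0.11, and all 3 Grn probe sets lay between -0.10 and -0.062. For Neu1 a dimmer probe set was at -0.20. Mcoln1 had a probe set nearly as bright as that used (mean 7.69 against 7.81 over all arrays) at -0.015, and a dimmer one at -0.16. For Ctsa a dimmer probe set was at -0.034. Lamp2 had changes of 0.043 and 0.037 on a pair of probe sets and of -0.13 and -0.087 on another pair, so these probe sets do not share a direction. No probe set besides the brightest had groups that did not overlap. Ctsd, like Cd68, has 1 probe set, and that of Ctsl besides the brightest was under the filter level.

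Cd68 is set beside the median of the other members by array as a description. Cd68 was chosen for its change, and a median over many genes of mixed sign stays near 0. Nothing is therefore read from their difference in size. Relative to the scrambled mean, Cd68 stood at 0.37, 0.22, 0.44, 0.44 and 0.50 in antisense arrays 1 to 5. The median of the other 31 members in the same arrays was -0.038, -0.016, 0.073, 0.030 and 0.052. Antisense arrays 1 and 2, lowest of their group in Cd68, were also lowest in this median. In scrambled arrays 1 to 5 that median was 0.034, -0.0079, 0.0086, -0.037 and 0.017, so the range of the scrambled arrays overlapped that of the antisense ones. The number of the 31 above their scrambled mean was 14, 14, 21, 17 and 22 in antisense arrays and 24, 14, 18, 8 and 21 in scrambled arrays. In the map of deviations some arrays held several members at an end of their group, in examples picked after their values were seen. Cln3, Naglu, Sgsh, Gaa and Ctns were lowest in antisense array 1, and Ctsh, Lipa and Mcoln1 in antisense array 2. Cln3, Gusb and Sgsh were highest in antisense array 4. Some of this was shared by the scrambled array of the same number. Cln3 was lowest of its group in scrambled array 1 too, and Ctsh and Lipa in scrambled array 2. Naglu, Sgsh and Gaa were instead highest of their group in scrambled array 1, and Mcoln1 in scrambled array 2.

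**Figure D3:**
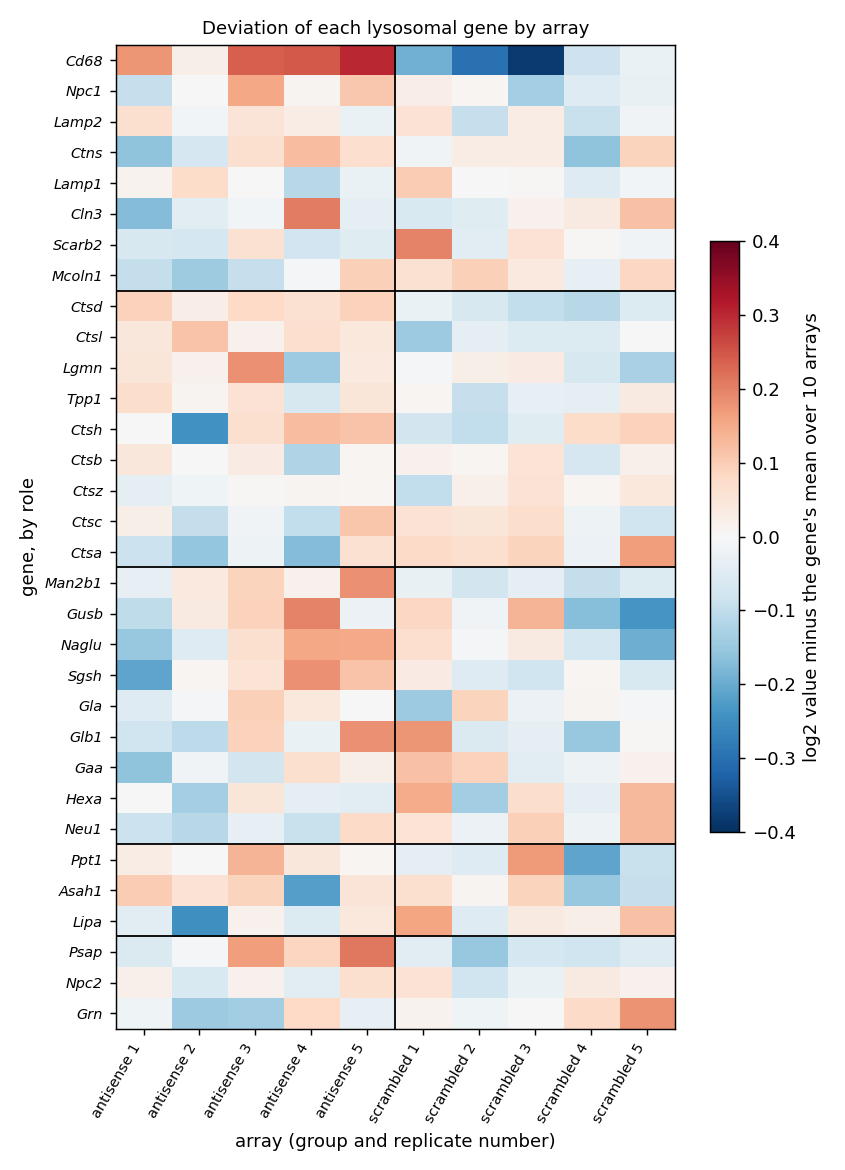
Log2 value of each gene minus its mean over the 10 arrays (colour, from -0.4 to 0.4), genes by role from top to bottom and arrays by group and replicate number, antisense left of the line. The Cd68 row separates the groups, and most other rows mix signs within each group.

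The promoters of the members were read for the E-box letters that TFEB-type factors bind. RefSeq promoters (GRCm38.p6, 250 bases before to 50 after the start) were listed for 29 of the 33 genes, 34 promoters in all. The 6 letters CACGTG were found in 12 of them (35.3%), against 7.15% of all 32851 promoters. The longer TCACGTG, searched on both strands and always overlapping a CACGTG, was found in 11 (32.4%), against 3.77% of all. Those 11 belong to Lamp1, Mcoln1 and Cln3 of the membrane and to Ctsa, Ctsd, Lgmn, Gaa, Gla, Glb1, Naglu and Sgsh of the lumen. The Cd68 window, of which the part before the start is printed above, holds neither. Only the most upstream match of each promoter was located, and some promoters hold more, such as that of Lamp1 with 4 CACGTG. For 7 of the 11, picked because this match lay under 80 bases from the start, its E-box is shown in capitals. It has 12 bases on either side and is on the strand of the gene. The windows of Naglu, Lgmn and Ctsa lie at chr11:101070009-101070038, chr12:102439124-102439153 and chr2:164833749-164833778, and those of Lamp1, Mcoln1 and Glb1 at chr8:13159088-13159117, chr8:3500436-3500465 and chr9:114401018-114401047. That of Sgsh lies at chr11:119355522-119355551. Lgmn and Sgsh are on the minus strand and the other 5 on the plus strand.
Lamp1: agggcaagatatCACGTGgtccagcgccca
Mcoln1: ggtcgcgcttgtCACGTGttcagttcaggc
Ctsa: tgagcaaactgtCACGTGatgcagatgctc
Glb1: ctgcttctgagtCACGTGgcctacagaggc
Naglu: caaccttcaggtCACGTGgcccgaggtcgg
Lgmn: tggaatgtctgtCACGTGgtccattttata
Sgsh: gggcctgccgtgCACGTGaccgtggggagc

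The 11 genes with TCACGTG had log2 changes from -0.15 to 0.14 with a median of 0.026, and 6 of them lay above 0. The 16 measured genes with a listed promoter that lacks it, Cd68 left out, had a median of 0.0043, and 8 of them lay above 0. The members that share these letters thus lay on both sides of 0. Among all genes tested 55.1% lay above 0, and both counts are near that share, so nothing is read from them about the E-box.

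The rest of the lysosomal system was described with 96 further genes in 5 lists, of which 84 were tested. Of these 1 rose and none fell, against 1.53% of all genes called in either direction, and their median log2 change was 0.0059. The one that rose was Gm2a, the activator protein that presents ganglioside GM2 to hexosaminidase A. Gm2a had values of 9.63, 9.77, 9.59, 9.70 and 9.62 in antisense arrays, against 9.42, 9.54, 9.51, 9.40 and 9.42 in scrambled arrays. The groups did not overlap, and the change was 0.21 (SE 0.046, limma adjusted p = 0.0466). A second Gm2a probe set had a change of 0.35, which did not pass when it stood for the gene (limma adjusted p = 0.424). The mean of the Gm2a probe sets did not pass either (adjusted p = 0.185), nor did Gm2a with median centring (adjusted p = 0.0668) or with no filter (adjusted p = 0.0793). The call is borderline: of 10 limma fits that each omit an array, 9 lost it (highest adjusted p 0.123, without antisense replicate 4) and that without scrambled replicate 2 kept it (adjusted p = 0.0464). The enzyme subunit that Gm2a serves, Hexa, was at -0.070, and Psap, which holds other sphingolipid activators, at 0.16.

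Among 17 tested further membrane proteins the smallest p-values were those of Sidt2, a nucleic acid transporter of the lysosome (0.16, limma adjusted p = 0.0646), the cation-transporting ATPase gene Atp13a2 (0.11) and the lipid transporter gene Abca2 (0.090), and none passed. Groups that did not overlap were seen for Gm2a, Sidt2 and Abca2, 3 of the 84 (3.57%), all higher. This was near the share of all genes tested, 3.92% (2.74% higher and 1.18% lower). Of 21 tested hydrolases and activators the acid phosphatase gene Acp2 (0.14) and Ctsk (-0.11) came next after Gm2a. None of 15 genes of the vacuolar proton pump, which acidifies the lysosome, passed, with Atp6v0a1 at 0.11, Atp6v1b2 at -0.084 and Atp6v1d at 0.073. Of 16 genes of mannose 6-phosphate tagging and sorting none passed. The receptor gene Igf2r, which carries tagged hydrolases from the Golgi, was at 0.17 (limma adjusted p = 0.203), the retromer gene Vps26a at -0.11 and Gnptg at -0.069. None passed among 15 MiT/TFE factors and genes of mTORC1 control, with Rraga at 0.11, Lamtor1 at -0.098 and Lamtor3 at -0.055. Of the factors themselves, named after their values were seen, Tfeb was at 0.0049 and Tfe3 at -0.014. Mitf, another of these factors, was under the filter level and was not tested. Other probe sets above the filter level gave the opposite sign for 1 probe set each of Acp2, Atp13a2 and Lamtor1 and for 2 of Atp6v0a1, and the mean over the probe sets of Atp6v0a1 was 0.0012.

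**Figure D4:**
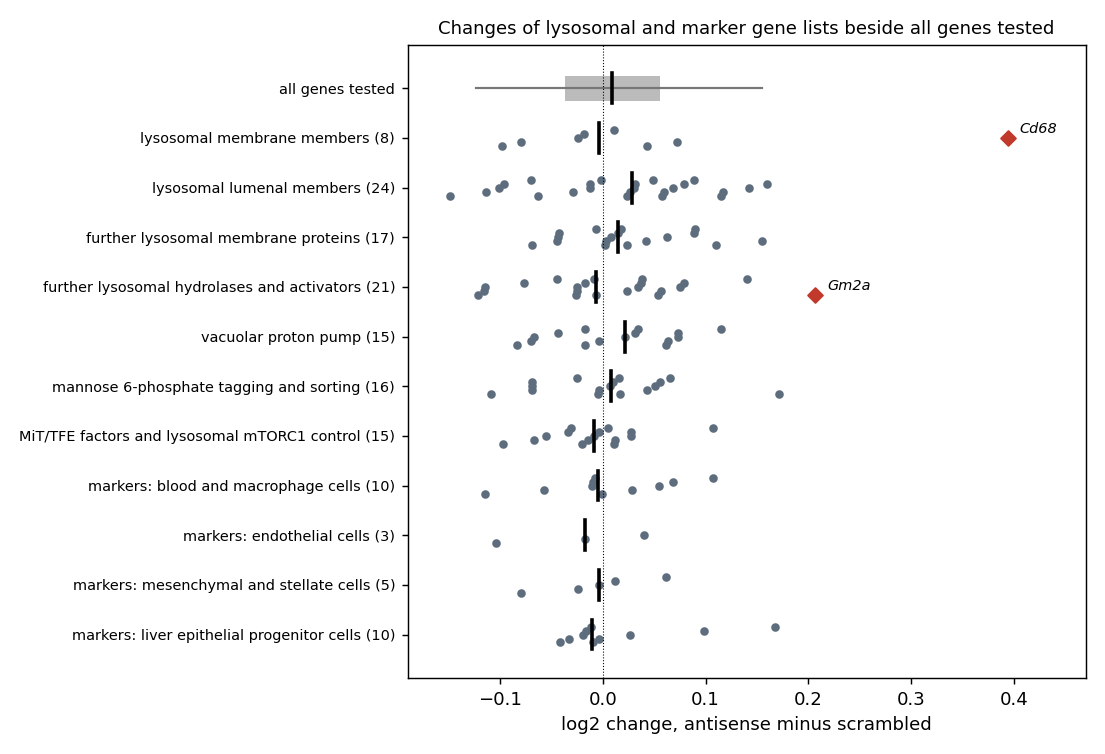
Log2 change, antisense minus scrambled, of each tested gene (points) by list, with the list median (black bar) and the number of genes in brackets; red diamonds passed an adjusted p of 0.05. The top row gives all 12633 genes tested, with the middle 50% as a box and the 5% to 95% range as a line.

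Since Cd68 is also used as a macrophage marker, other markers of such cells were read beside it. Of 22 blood and macrophage markers, 10 were above the filter level and none of these passed, with a median log2 change of -0.0044. Of all genes tested 1.53% were called in either direction, so nothing is read from the lack of calls among 10. The brightest were Mrc1 (9.87 in antisense and 9.88 in scrambled arrays), a mannose receptor that endothelial cells also make, and Cd14 (8.85 in antisense and 8.86 in scrambled arrays), a lipopolysaccharide co-receptor. The other 12, among them the pan-leukocyte gene Ptprc (3.45 in antisense and 3.67 in scrambled arrays), Adgre1 (3.73 in antisense and 3.64 in scrambled arrays), Itgam, Tyrobp and Aif1, lay under it. The summed linear level of the 22 ranged from 1845 to 2022 in antisense arrays and from 1889 to 2079 in scrambled arrays, so the ranges overlapped. Mrc1 and Cd14 made up 69.2% to 72.7% of that sum. Without them, a step chosen after the values were seen, the sum of the other 20 ranged from 546.6 to 589.8 in antisense arrays and from 542.0 to 600.5 in scrambled arrays. Csf1r was at 6.47 ± 0.15 in antisense and 6.41 ± 0.13 in scrambled arrays (SD, n = 5 each). Of the endothelial markers 3 of 7, and of the mesenchymal and stellate markers 5 of 8, were above the filter level, and none passed. These lists are too short for that count to be read. The summed level of the endothelial markers ranged from 419.5 to 484.2 in antisense and from 455.7 to 499.6 in scrambled arrays, and that of the mesenchymal ones from 206.4 to 232.3 in antisense and from 210.1 to 218.5 in scrambled arrays.

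The genes next to Cd68 on chromosome 11 were read too, 3 protein-coding genes on either side in the order of RefSeq, chosen after the values of Cd68 were known. Of the 4 that were tested none passed, against 1.53% of all genes tested, and nothing is read from so small a count. Mpdu1 was at 0.044 and Fxr2 at 0.021 on one side, Eif4a1 at -0.037 and Senp3 at 0.0016 on the other. Eif4a1, the nearest gene upstream of Cd68 and on a bright probe set, averaged 12.88 ± 0.018 in antisense and 12.92 ± 0.036 in scrambled arrays (SD, n = 5 each).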

How the data were processed

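The deposited table gives the authors' log2 expression values for each probe set on each array, read as log2 from their range. How the authors summarised, background-corrected and normalized them is not given in the sources used here. Per the labels, total RNA was amplified and labelled with biotin (MessageAmp Premier). Groups and replicate numbers came from the titles. They do not say whether replicates were separate cultures, so a p-value covers the spread among these arrays alone, which may be technical. The number of arrays limits the precision.

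Of 45101 probe sets, 64 array controls were removed and 34945 had 1 gene symbol, updated through RefSeq identifiers. Each of 18193 genes was read from its brightest probe set, and those whose mean fell in the lowest 40% of probe sets (under 4.56) were not tested. The groups were tested by lmFit and eBayes of limma 3.58.1 (R 4.3.3), two-sided, all 12633 genes entering the Benjamini-Hochberg adjustment, with a threshold of 0.05. Same-numbered arrays had correlated deviations (0.112 to 0.377), while pairs with unlike numbers gave -0.312 to 0.231, so the ranges overlapped. The main fit, which gave every adjusted p not marked otherwise, had no replicate block. Numbers were taken as pairs, from the data alone, in the fit with the replicate block and where arrays of equal number are compared. No label states what the numbers mark. The procedure was checked on simulated data with independent arrays and added changes larger than that of any member besides Cd68. That check does not show how often changes as small as those of the other members would be found. Plots used matplotlib 3.10.9 (Python 3.11.15).

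The members and lists were chosen with earlier results of these data known. Every member is given. Array values are listed for Cd68, for members past the threshold or without overlap and for the 6 others of smallest p, and each further list is named by its calls and its 3 smallest p.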

Additional observations from a re-analysis of the deposited data

Results flagged for a closer look

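Among 94 groups of 5 arrays (the members and the named genes of the further lists, in each group) 3 held an array far from the other 4, where chance gives about 1 in 20. Scarb2 was at 10.34 in antisense array 3, against at most 10.23 in the other antisense arrays. Ctsb was at 10.54 in antisense array 4, against at least 10.66 in the other antisense arrays. Asah1 was at 11.2 in antisense array 4, against at least 11.48 in the other antisense arrays. Scrambled array 4 was also the lowest of its group for Ctsb (10.59) and Asah1 (11.27). For Scarb2 the highest scrambled array was array 1 (10.47), not array 3.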

How the results depend on the processing

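The alternatives were the replicate block, quantile normalization, median centring, no filter or a 60% filter, the mean of a gene's probe sets, the probe set of largest variance, limma's trend and robust options, and leaving out each array. The count of genes past the threshold was 385 with the replicate block, 314 with the trend and 115 with the probe set of largest variance, against 193, and 92 to 202 with 1 array left out. The count of members was 3 with the trend, against 1, and 0 to 1 with 1 array left out. With the 60% filter, which called 233 of 9536 genes tested, the 1 member called was Ctsd, since Cd68 fell under it. The count of further lysosomal genes, 1, was 0 with median centring, no filter, the mean of probe sets or the probe set of largest variance, 2 with the 60% filter, where Sidt2 passed too, and 0 to 1 with 1 array left out. The replicate block changed no call of a member or of a further lysosomal gene named here. With 1 array left out the median change ranged from -0.023 to 0.024 for the membrane proteins and from 0.010 to 0.044 for the lumenal members. Cd68 had changes from 0.35 to 0.44 in the fits that held it. Its direction could not turn with 1 array left out, since its groups did not overlap. Nor could it turn with the choice of probe set, since Cd68 has 1. Nothing is therefore read from its direction in these fits. The sign turned with the mean of probe sets for Lamp2 (-0.0348), and with the probe set of largest variance for Lamp2 (-0.13), Npc2 (0.017), Atp13a2 (-0.074) and Atp6v0a1 (-0.054), other probe sets being read there. With 1 array left out it turned for 9 members near 0: Lamp1 (-0.039 to 0.0074), Cln3 (-0.078 to 0.017), Ctns (-0.028 to 0.053), Ctsb (-0.031 to 0.017), Ctsh (-0.0039 to 0.087), Gla (-0.0027 to 0.056), Glb1 (-0.016 to 0.074), Asah1 (-0.0025 to 0.090) and Npc2 (-0.023 to 0.013). Cd68 and the other dim probe sets are limited by their signal, which was not set against background here.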
